A study of Homo sapiens with 8 samples.

Results

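Transcript levels of 10 regulators of the BCL2 family were read in 8 RNA-seq libraries of 2 established human clear cell renal cell carcinoma (ccRCC) lines, A498 and 786-O. The genes were BCL2, BCL2L1, BCL2L2, MCL1, BCL2A1, BCL2L11, BID, BAK1, PMAIP1 and BAD, 10 of the 18693 genes that remained after the values of all RefSeq protein-coding entries of a gene were added up. Genes entered the tests if their level averaged 1 FPKM or more across the libraries, which held for 9 of the 10 and for 10503 of all genes, and BCL2 fell short of it. FPKM is the number of fragments scaled to the length of the transcript and to the mapped reads of the library, so levels of different genes can be set side by side per length. In each line 2 libraries came from cells given a non-targeting control (NTC) siRNA, 1 from cells given SLINKY siRNA #1 and 1 from cells given SLINKY siRNA #2, each at 50 nM for 16 h. SLINKY is a long intergenic noncoding RNA, and both siRNAs target its first exon. Besides the line and the siRNA the groups differed in their medium, DMEM for A498 and RPMI-1640 for 786-O, so the line and its medium cannot be told apart. In the study's methods these 16 h are the time of transfection, and RNA was isolated at a later time. The methods describe individual siRNAs against SLINKY where the labels say pools, a difference that was not resolved. No label says whether the NTC libraries came from separate cultures, so the spread between these libraries may be technical. The tests put the siRNA #1 and siRNA #2 libraries of a line together in 1 knockdown group. The spread behind the p-values, standard errors and intervals therefore mixes that between NTC libraries with differences between the siRNAs.

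The BCL2 family sets the threshold at which a cell starts the mitochondrial pathway of apoptosis. Its anti-apoptotic members (BCL2, BCL-XL from BCL2L1, BCL-W from BCL2L2, MCL1 and BFL-1 from BCL2A1) hold the effectors BAX and BAK in check. BH3-only proteins, which include BIM from BCL2L11, BID, NOXA from PMAIP1 and BAD, respond to stress by occupying the groove of the anti-apoptotic members or by acting on the effectors directly. Once BAX and BAK form pores in the outer mitochondrial membrane, cytochrome c leaves the mitochondrion and caspases are activated.

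The contact between these proteins runs through the BH3 helix, whose core is a leucine, 3 residues of any kind, a small residue and an aspartate. The coding sequences of the MANE Select transcripts (GENCODE v44 on GRCh37, the build of the deposited files) were searched for a leucine codon, 3 free codons, a codon for glycine, alanine or serine and a codon for aspartate. This pattern was present in 8 of the 10 genes, and in 35.4% of all 18712 MANE Select coding sequences, so a match alone marks no BH3 helix. The stretches of 42 bases below are shown because they carry the pattern found in these 8 genes. They are given in the coding direction, with the leucine codon and the codons for the small residue and aspartate in capitals.
BCL2: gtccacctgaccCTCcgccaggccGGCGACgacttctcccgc
BCL2L1: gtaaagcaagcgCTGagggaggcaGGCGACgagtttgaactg
MCL1: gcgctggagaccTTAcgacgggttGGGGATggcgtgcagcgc
BAK1: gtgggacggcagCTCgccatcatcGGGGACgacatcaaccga
BCL2L11: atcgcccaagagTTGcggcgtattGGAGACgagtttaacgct
BID: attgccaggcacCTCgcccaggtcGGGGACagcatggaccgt
PMAIP1: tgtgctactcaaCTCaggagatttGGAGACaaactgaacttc
BAD: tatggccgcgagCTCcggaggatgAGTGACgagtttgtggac

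The small residue was glycine in 7 of these 8 stretches and serine in BAD. The BCL2 stretch lies at chr18:60985582-60985623 on the minus strand, in exon 2 of 3, and the BCL2L1 stretch at chr20:30309725-30309766 on the minus strand, in exon 2 of 3. The MCL1 stretch lies at chr1:150551341-150551382 on the minus strand in exon 1 of 3, and the BAK1 stretch at chr6:33543164-33543205 on the minus strand in exon 4 of 6. The BCL2L11 stretch lies at chr2:111907668-111907709 on the plus strand, in exon 3 of 4. The BID stretch lies at chr22:18222181-18222222 on the minus strand in exon 4 of 6, and a second match in BID, at chr22:18226690-18226731, has serine as the small residue and is not shown. The PMAIP1 stretch lies at chr18:57569893-57569934 on the plus strand in exon 2 of 2, and the BAD stretch at chr11:64039094-64039135 on the minus strand in exon 3 of 4. The pattern was not found in BCL2A1 and BCL2L2, which says only that these letters are not in their coding sequence. The encoded proteins run from 54 residues for PMAIP1 to 350 for MCL1.

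SLINKY itself stood at 14.6 and 16.1 FPKM in the A498 NTC libraries and at 1.64 and 3.01 FPKM with siRNA #1 and #2, reductions of 89.3% and 80.3%. In 786-O it stood at 1.45 and 1.39 FPKM in the NTC libraries and at 0.0569 and 0.594 FPKM with siRNA #1 and #2, reductions of 96.0% and 58.2%. All 4 knockdown libraries lay below the NTC libraries of their line, and a two-sided exact permutation test within lines gave p = 0.0556, the smallest it can give over 36 arrangements. The libraries held an estimated 25030000 to 64420000 mapped reads, with the fewest in A498 siRNA #2 and the most in 786-O NTC 2. Of 10 markers of kidney tubule and ccRCC cells, 9 had a mean of at least 1 FPKM, while CA9, a hypoxia-induced ccRCC marker, stayed at 0.293 to 0.559 FPKM in A498 and at 0 to 0.0229 FPKM in 786-O. None of 13 markers of other cell types reached that mean, 3 of them were listed at 0 throughout, and their summed level was 0.624 to 0.768 FPKM in A498 and 0.605 to 0.875 FPKM in 786-O.

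The family spanned a wide range of levels in both lines, with BCL2L1 at the top and BCL2 at the bottom. In A498, BCL2L1 stood at 161 ± 5.15 FPKM (SD, n = 4 libraries), apart from all others. Below it came PMAIP1, MCL1, BAK1, BAD and BID, whose means ran from 51.3 to 40.8 FPKM, and each neighbouring pair among these 5 overlapped in its libraries. A wide step led down to BCL2L2 at 5.48 ± 0.436, BCL2L11 at 2.95 ± 0.232, BCL2A1 at 1.97 ± 0.167 and BCL2 at 0.427 ± 0.121 FPKM, none of which overlapped its neighbour. In 786-O, BCL2L1 led with 79.7 ± 3.70 FPKM, followed by BAD at 59.1 ± 5.51, MCL1 at 51.5 ± 3.44 and BID at 46.9 ± 2.01. BAD overlapped MCL1 and MCL1 overlapped BID, while BCL2L1 lay above BAD in all libraries. PMAIP1 at 25.2 ± 3.09 and BAK1 at 21.7 ± 1.29 formed the next step, and BCL2A1 at 6.92 ± 0.760, BCL2L2 at 4.64 ± 0.234, BCL2L11 at 2.63 ± 0.233 and BCL2 at 0.761 ± 0.207 FPKM the lowest, with no overlap between neighbours from PMAIP1 down. BCL2, after which the family is named, was therefore listed at or below 1.02 FPKM in every library. The BCL2L2 level leaves out a readthrough entry that covers the same bases. That entry was listed at 25.3 to 28.4 FPKM in A498 and 42.6 to 47.2 FPKM in 786-O, so the rank of BCL2L2 is uncertain.

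**Figure D1:**
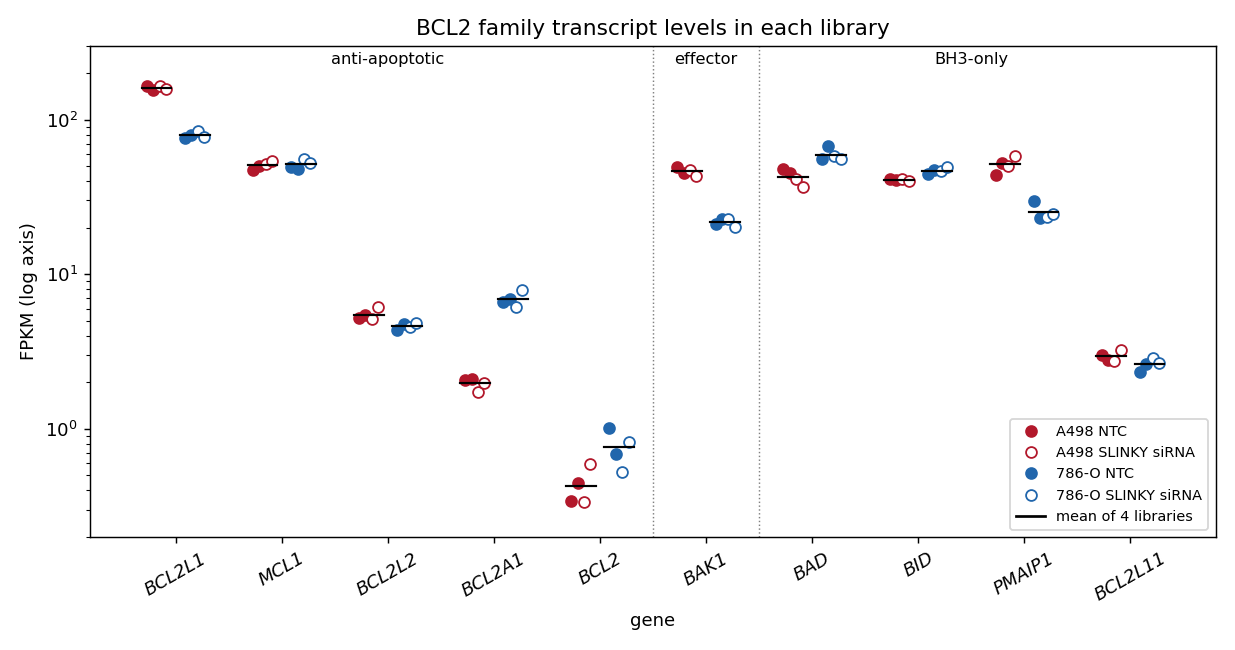
FPKM on a log axis for each of the 10 genes, with A498 in red, 786-O in blue, filled points for NTC libraries, open points for SLINKY siRNA libraries and a bar at the mean of 4 libraries. BCL2L1, BAK1 and PMAIP1 sit higher in all 4 A498 libraries, and BCL2A1 sits higher in all 4 of 786-O. Apart from those of BCL2, the filled and open points of a gene lie close together within a line.

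The comparison of the lines asked how the family differs between these tumor cell backgrounds, with both transfections in each. BCL2L1, BAK1 and PMAIP1 stood about 2-fold higher in A498, and BCL2A1 stood 3.38-fold higher in 786-O. BAD and BID were modestly higher in 786-O, BCL2L2 was slightly higher in A498 unless an overlapping readthrough entry was added (log2 difference 0.23 without and -0.61 with it), and MCL1 and BCL2L11 did not pass the test. In limma's fit with line and knockdown as terms, 7 of the 9 tested members were called at an adjusted p under 0.05, 4 higher in A498 and 3 higher in 786-O. The same was true of 83.0% of all genes tested, so the number of members called is no result about the family. A difference of at least 2-fold was also present in 4 of the 9, against 23.3% of all genes, but BCL2L1 and PMAIP1 lay so close to 2-fold that the count was 3 or 4 depending on the libraries and the pseudocount, while BAK1 and BCL2A1 stayed past it under every alternative. The libraries of the lines did not overlap for 7 of the 9 members and for 77.3% of all genes. The median absolute log2 difference was 0.47 over the members and 0.50 over all genes, and the median signed log2 difference was 0.16 and -0.02. These are bulk libraries, in which fewer cells expressing a gene and less RNA of it per cell cannot be told apart.

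**Figure D2:**
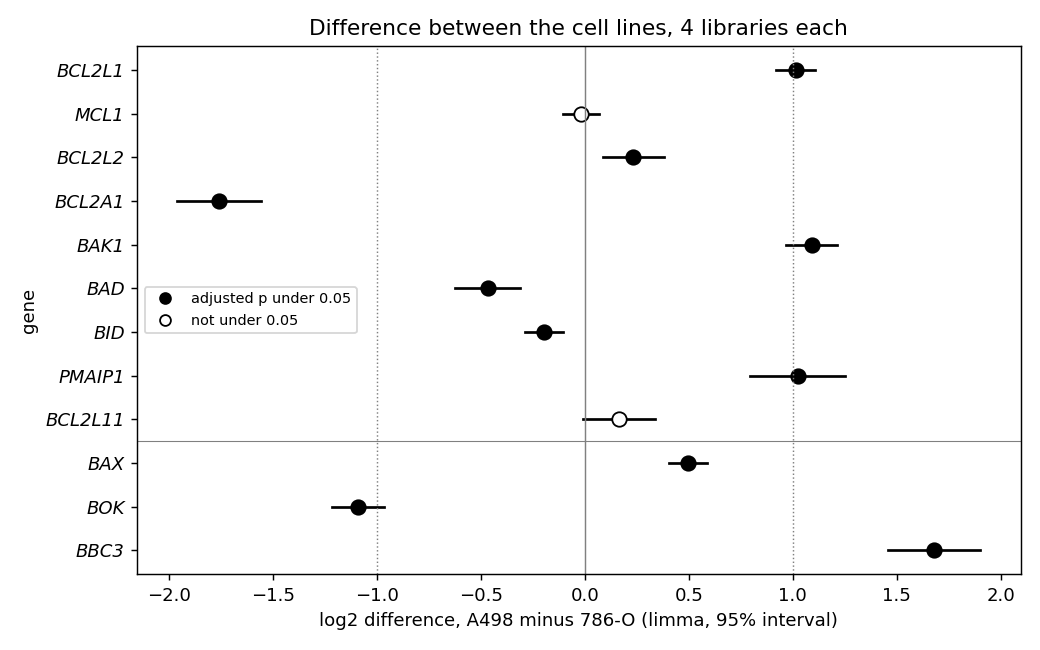
Log2 differences between the lines (A498 minus 786-O, on the log2(FPKM + 0.1) scale) with 95% intervals from limma for the 9 tested members and, below the line, BAX, BOK and BBC3; filled points have an adjusted p under 0.05 and dotted lines mark 2-fold. BCL2A1 lies farthest to the left at -1.76, BAK1, PMAIP1 and BCL2L1 lie near 1, and MCL1 lies at -0.02.

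Among the anti-apoptotic genes, BCL2L1 encodes BCL-XL, which binds both effectors and many BH3-only proteins. It was listed at 165, 156, 166 and 158 FPKM in A498 (NTC 1, NTC 2, siRNA #1 and siRNA #2, the order used for all values below) and at 76.7, 79.9, 84.9 and 77.5 FPKM in 786-O. The lines were far apart and the libraries within each close together. The log2 difference was 1.01 (SE 0.04, limma adjusted p = 8.0e-09), and 23.2% of all tested genes differed by at least as much.

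BCL2A1, an NF-kB target in immune cells, showed the opposite order. It was listed at 2.06, 2.11, 1.74 and 1.98 FPKM in A498 and at 6.63, 6.95, 6.15 and 7.94 FPKM in 786-O, without overlap. The log2 difference was -1.76 (SE 0.09, limma adjusted p = 3.7e-08), and 11.0% of all tested genes differed by at least as much. From the deposited intervals its values were estimated to rest on 24 to 275 reads a library, few beside the 4106 to 12521 reads estimated for BCL2L1.

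MCL1 is a short-lived protein on which many tumor cells depend. Its transcript was listed at 47.0, 50.0, 52.0 and 53.9 FPKM in A498 and at 49.4, 48.2, 55.9 and 52.5 FPKM in 786-O, with the lines overlapping. The log2 difference was -0.02 with a 95% interval of -0.11 to 0.07 (limma adjusted p = 0.64), an interval narrower than that of any other member, and 97.7% of all tested genes differed by at least as much.

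BCL2L2 was listed at 5.19, 5.47, 5.16 and 6.10 FPKM in A498 and at 4.34, 4.80, 4.57 and 4.85 FPKM in 786-O. The lines did not overlap, though the gap was small, and the log2 difference was 0.23 (SE 0.07, limma adjusted p = 0.0079). This value is uncertain, because a readthrough entry that joins BCL2L2 to its neighbour PABPN1 covers the same bases and was listed far higher, at 25.3 to 28.4 FPKM in A498 and 42.6 to 47.2 FPKM in 786-O. With the readthrough entry added to BCL2L2 the log2 difference became -0.61, the opposite direction. That entry runs on to position 23795394 of chromosome 14, while the BCL2L2 entries end at 23780968. Its level may therefore rest on reads from outside BCL2L2, which was not tested. BCL2 was listed at 0.338, 0.443, 0.335 and 0.593 FPKM in A498 and at 1.02, 0.688, 0.525 and 0.816 FPKM in 786-O. The lines overlapped, and an estimated 40 to 164 reads a library lay behind these values. With no filter on low values the BCL2 log2 difference was -0.70 (SE 0.23, limma adjusted p = 0.030).

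BAK1 encodes BAK, the effector that resides in the mitochondrial membrane. It was listed at 49.2, 45.1, 47.2 and 43.4 FPKM in A498 and at 21.1, 22.8, 22.7 and 20.1 FPKM in 786-O. The lowest A498 library lay well above the highest of 786-O. The log2 difference of BAK1 was 1.09 (SE 0.05, limma adjusted p = 3.5e-08), and 21.0% of all tested genes differed by at least as much.

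Of the BH3-only genes, PMAIP1 encodes NOXA, which binds MCL1 and BFL-1. It was listed at 44.2, 52.6, 49.9 and 58.5 FPKM in A498 and at 29.7, 23.0, 23.6 and 24.5 FPKM in 786-O. It varied more within a line than BCL2L1 or BAK1, yet the lines did not overlap. The log2 difference was 1.02 (SE 0.10, limma adjusted p = 5.9e-06), and 22.8% of all tested genes differed by at least as much.

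BAD, which binds BCL2, BCL-XL and BCL-W and is held back by phosphorylation, was listed at 48.2, 44.9, 41.6 and 36.7 FPKM in A498 and at 55.6, 67.2, 58.2 and 55.5 FPKM in 786-O. All 786-O libraries lay above all A498 libraries, with a log2 difference of -0.47 (SE 0.07, limma adjusted p = 0.00012). This lay close to the median absolute difference of all genes, and 52.7% of them differed by at least as much. BID, which caspase-8 cleaves to link death receptors to the mitochondria, was listed at 41.4, 40.6, 41.4 and 39.9 FPKM in A498 and at 44.5, 47.2, 46.5 and 49.4 FPKM in 786-O. The lines were narrowly apart, with a log2 difference of -0.20 (SE 0.04, limma adjusted p = 0.0011), and 78.1% of all tested genes differed by at least as much.

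BCL2L11 encodes BIM, which binds every anti-apoptotic member. It was listed at 3.01, 2.80, 2.74 and 3.25 FPKM in A498 and at 2.32, 2.64, 2.88 and 2.66 FPKM in 786-O, with overlap. The log2 difference was 0.16 with a 95% interval of -0.01 to 0.34 (limma adjusted p = 0.074).

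The makeup of each role was then described as a share of its summed FPKM. All entries of a gene were counted, so the anti-apoptotic sum includes BCL-XS, the short form of BCL2L1 that promotes cell death. That form was listed with 35.0% to 40.1% of BCL2L1 in A498 and 36.9% to 44.9% in 786-O. The MCL1 part came from entries other than that of the full-length form. The anti-apoptotic genes summed to 220 ± 4.73 FPKM in A498 and to 144 ± 6.08 FPKM in 786-O (SD, n = 4 libraries). BCL2L1 made up 71.6% to 75.1% of that sum in A498 and 54.0% to 56.9% in 786-O, MCL1 21.4% to 24.5% and 34.3% to 36.8%, and BCL2A1 0.770% to 0.988% and 4.04% to 5.53%. Since MCL1 was listed at like levels in both lines, its higher share in 786-O went with the lower BCL2L1 level there. The 4 BH3-only members summed to 138 ± 2.32 FPKM in A498 and to 134 ± 4.12 FPKM in 786-O, close to each other. Further BH3-only genes are not in these sums, among them BBC3 at 25.1 FPKM in A498 and 7.82 FPKM in 786-O. The closeness therefore holds for these 4 genes only. PMAIP1 held 32.3% to 42.3% of the sum in A498 and 16.4% to 22.5% in 786-O, while BAD held 26.5% to 35.2% and 42.0% to 48.0%. BID held 28.8% to 30.5% and 33.7% to 37.4%, and BCL2L11 at most 2.35% in either line. These shares describe transcripts, not protein. The sums and shares also leave out the readthrough entry over BCL2L2. It was listed at 25.3 to 28.4 FPKM in A498 and 42.6 to 47.2 FPKM in 786-O. Counting it in full would raise the anti-apoptotic sum, more so in 786-O, and lower the BCL2L1 share. How much of its level comes from bases of BCL2L2 was not tested.

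**Figure D3:**
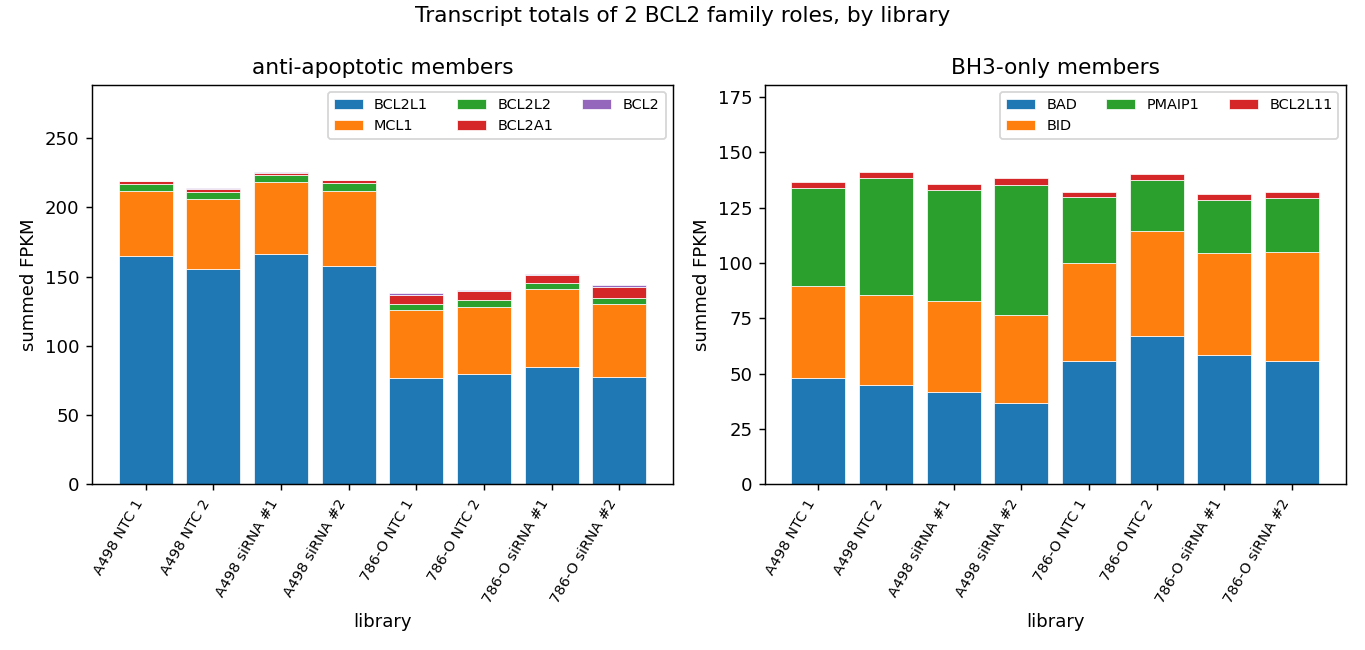
Summed FPKM of the anti-apoptotic genes (left) and of the 4 BH3-only members (right) in each of the 8 libraries, stacked by gene. The readthrough entry over BCL2L2 and further BH3-only genes such as BBC3 are left out. The anti-apoptotic stack is taller in A498, at 214 to 225 FPKM against 138 to 152 FPKM, through its BCL2L1 part, whereas the BH3-only stacks are of like height and differ in their PMAIP1 and BAD parts.

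Several of these genes make protein forms with opposed functions, and Cufflinks divided the reads of a gene among its RefSeq entries. For BCL2L1, the long form BCL-XL (NM_138578) was listed at 94.4 to 104 FPKM in A498 and at 44.0 to 49.2 FPKM in 786-O. The short form BCL-XS (NM_001191), which promotes cell death, was listed at 54.4 to 63.4 FPKM in A498 and at 28.6 to 35.9 FPKM in 786-O. Its share of BCL2L1 was 35.0% to 40.1% in A498 and 36.9% to 44.9% in 786-O, so the shares overlapped although both levels did not. For MCL1, the entry NM_001197320 held 79.9% to 85.3% in A498 and 83.1% to 85.6% in 786-O, and NM_182763, the short form that lacks the anti-apoptotic groove, held the rest at 7.65 to 9.49 FPKM in A498 and 6.92 to 8.84 FPKM in 786-O. The entry of the full-length form, NM_021960, stayed under 0.001 FPKM in all 8 libraries. With 36 bp single reads such a split depends on how Cufflinks allots reads that fit several entries, which was not tested.

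BCL2L11 had 18 entries, and nearly all of them moved widely from library to library at these low levels. An exception was NM_207002, which ends at position 111886423 of chromosome 2, before the exon that holds the BH3 stretch printed above. It made up 2.90% to 5.37% of BCL2L11 in A498 and 12.3% to 16.8% in 786-O, without overlap, at 0.0812 to 0.162 FPKM and 0.286 to 0.444 FPKM. These shares rest on a handful of reads a library and were singled out after their values were seen. BAD consisted almost wholly of NM_032989, with 95.3% to 96.4% in A498 and 96.2% to 99.3% in 786-O. BID was divided mainly between NM_001244567, with 62.7% to 72.6% in A498 and 66.4% to 76.6% in 786-O, and NM_197967, with 23.7% to 33.7% and 21.2% to 31.3%.

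Entries that overlap a member share its bases, and without strand their reads cannot be told apart from those of an entry on the other strand. Within BCL2 a noncoding entry was listed at up to 1.00 FPKM, as high as BCL2 itself. An NM entry without a symbol that overlaps BAD was listed at 3.28 to 7.07 FPKM, and the short microRNA entry MIR3198-1 within BID at 27.4 to 164 FPKM. The noncoding entry within BCL2L1 stayed at or below 0.0895 FPKM, far under BCL2L1.

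The rest of the family and the neighbouring steps were read in 4 further lists. Of all genes tested 83.0% were called between the lines, 4259 higher in A498 and 4459 higher in 786-O, so the numbers called in each list are given as a description and mark nothing particular to it. Of 13 other BCL2 family genes, 8 reached the minimum level, of which 6 were called higher in A498 and 2 higher in 786-O. The median log2 difference of these 8 was 0.27. BAX, the effector that moves from the cytosol to mitochondria, was listed higher than any of the 10 regulators, at 261, 239, 241 and 226 FPKM in A498 and 171, 181, 170 and 163 FPKM in 786-O, a log2 difference of 0.50 (SE 0.04, limma adjusted p = 1.6e-06). BBC3, which encodes the BH3-only protein PUMA, stood at 25.1 ± 2.08 FPKM in A498 and 7.82 ± 1.10 FPKM in 786-O, a log2 difference of 1.68 (SE 0.10, limma adjusted p = 1.2e-07). BOK, a further effector-like protein, went the other way, with 14.6 ± 0.928 and 31.1 ± 1.66 FPKM and a log2 difference of -1.09 (SE 0.06, limma adjusted p = 4.1e-08). The effectors BAX and BAK1 were thus both higher in A498, and BOK in 786-O.

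Downstream of the family, 9 of 10 genes of the mitochondrial step and the caspases were tested, with 1 called higher in A498, 5 higher in 786-O and a median log2 difference of -0.14. CASP9, the caspase that the apoptosome activates, stood at 2.07 ± 0.268 FPKM in A498 and 5.81 ± 0.189 FPKM in 786-O (log2 difference -1.45). In the death receptor branch, which feeds into the family through BID, all 9 genes were tested, with 7 called higher in A498, 1 higher in 786-O and a median log2 difference of 0.96. TNFRSF10A and TNFRSF10B, the receptors for the death ligand TRAIL, stood at 11.8 ± 0.428 and 18.6 ± 2.29 FPKM in A498 and at 3.12 ± 0.246 and 7.00 ± 1.18 FPKM in 786-O, log2 differences of 1.89 and 1.41. Of 7 genes that control the turnover or transcription of the family, 3 were called higher in A498 and 2 higher in 786-O, with a median log2 difference of 0.09. DDIT3, a stress-induced factor that acts on BCL2L11, stood at 73.9 ± 2.59 FPKM in A498 and 39.0 ± 3.44 FPKM in 786-O (log2 difference 0.92).

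The second comparison asked whether SLINKY knockdown moved the family. No member passed the test over both lines, within A498, within 786-O or for a difference of the effect between lines. In limma's fit over both lines 0 of the 9 tested members and 0.0% of all genes had an adjusted p under 0.05. At an unadjusted p under 0.05 there were 2 members, MCL1 and BAD, and 1249 of all 10503 genes. Within A498 the test called 0 members and 0.0286% of all genes, with 1 member and 639 genes at an unadjusted p under 0.05. The 3 genes called in A498 became 156 without siRNA #1 and 96 without siRNA #2, when the lone knockdown library is assumed to vary like the NTC libraries, with 0 members among them. Within 786-O it called 0 members and 0.0% of all genes, with 1 member and 398 genes at an unadjusted p under 0.05. The interaction of knockdown and line called 0 members and 0.00952% of all genes, with 0 members and 191 genes at an unadjusted p under 0.05. The median log2 difference over both lines was 0.02 for the members and 0.01 for all genes. In each line the knockdown group held 1 library of each siRNA, so these fits count differences between the siRNAs as spread. With 2 libraries a group the intervals are wide, and a missed threshold does not show that a level stayed the same.

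MCL1 had the smallest p of the members over both lines. Its knockdown libraries lay above both NTC libraries in each line, at 52.0 and 53.9 against 47.0 and 50.0 FPKM in A498 and at 55.9 and 52.5 against 49.4 and 48.2 FPKM in 786-O. The log2 difference over both lines was 0.14 (SE 0.04, 95% interval 0.05 to 0.23, limma adjusted p = 0.32), a size that 15.0% of all genes reached or passed in either direction. Such a separation on the same side in both lines was present in 1 of the 9 members and in 11.7% of all genes.

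BAD went the other way in A498, where 41.6 and 36.7 FPKM in the knockdown libraries lay below 48.2 and 44.9 FPKM in the NTC libraries, while in 786-O the groups overlapped. Its log2 difference was -0.18 over both lines (SE 0.07, 95% interval -0.33 to -0.02, limma adjusted p = 0.40), -0.25 within A498 (limma adjusted p = 0.78) and -0.10 within 786-O (limma adjusted p = 0.97). The knockdown libraries lay on one side of both NTC libraries for 3 of the 9 members in A498 (MCL1, BCL2A1 and BAD) against 37.3% of all genes, and for 2 of the 9 in 786-O (MCL1 and BCL2L11) against 32.8%. These shares are near those of all genes.

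For the other members the log2 differences over both lines ran from -0.06 for BCL2A1 to 0.10 for BCL2L11. The 95% interval was -0.06 to 0.13 for BCL2L1, -0.07 to 0.12 for BID and -0.17 to 0.08 for BAK1. It was -0.20 to 0.25 for PMAIP1, -0.26 to 0.14 for BCL2A1, -0.08 to 0.27 for BCL2L11 and -0.09 to 0.21 for BCL2L2. All of these intervals lay within 0.32 on the log2 scale, the fold threshold that the study used, and that of BAD did not. Within single lines the intervals were wider and passed it for several members, to 0.40 for PMAIP1 and -0.44 for BCL2A1 in A498 and to -0.44 for PMAIP1 in 786-O. PMAIP1 had the largest difference of effect between the lines among the members, with a log2 change of 0.16 in A498, -0.12 in 786-O and an interaction of 0.28 whose 95% interval was -0.15 to 0.71. BCL2, not tested for its low level, averaged 0.391 FPKM with NTC and 0.464 FPKM with knockdown in A498, and 0.852 and 0.670 FPKM in 786-O, with overlap in both lines.

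Each siRNA was also set against the NTC mean of its line by the study's fold threshold, a level 25% above the NTC mean or the same fold below it (0.32 on the log2 scale), with no test since there is 1 library for each siRNA and line. Among the 9 tested members none passed it with siRNA #1 in A498 (3.81% of all genes), 1 with siRNA #2 in A498 (5.49%), none with siRNA #1 in 786-O (5.91%) and none with siRNA #2 in 786-O (3.92%). The member that passed was BAD, at 0.789 times the NTC mean. The next largest changes were PMAIP1 with siRNA #2 in A498, at 1.21 times the NTC mean, and BCL2A1 with siRNA #1 in A498, at 0.839 times. In both A498 and 786-O the siRNAs gave opposite signs for BCL2L1 and for BAK1. For BCL2L1 the log2 change was 0.05 with siRNA #1 and -0.02 with siRNA #2 in A498, and 0.12 and -0.01 in 786-O. For BAK1 it was 0.0016 with siRNA #1 and -0.12 with siRNA #2 in A498, and 0.05 and -0.12 in 786-O. The NTC libraries of a line differed from each other by 0.03 to 0.25 on the log2 scale among the members in A498 and by 0.04 to 0.37 in 786-O, and PMAIP1 in 786-O passed the threshold between the NTC libraries themselves. Among all genes 4.67% in A498 and 4.63% in 786-O did so. Below the filter, BCL2 stood at 1.41 times the NTC mean with siRNA #2 in A498 and 0.656 times with siRNA #1 in 786-O, opposite directions.

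**Figure D4:**
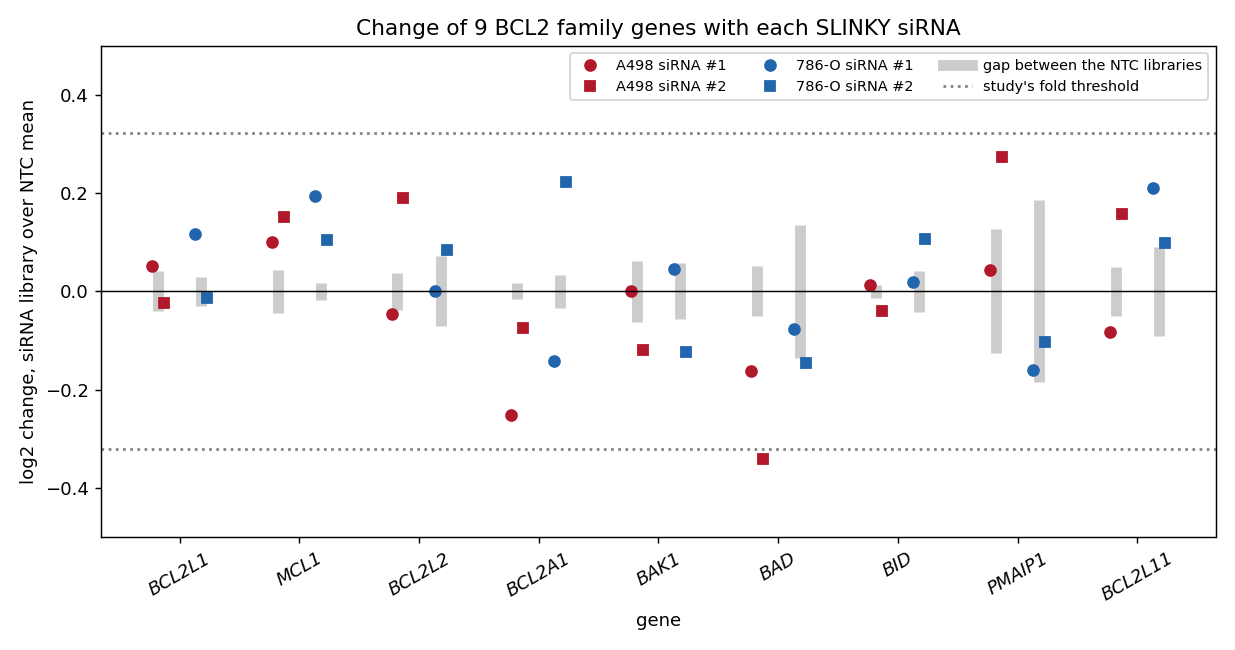
Log2 change of 9 genes in each SLINKY siRNA library over the NTC mean of its line, with A498 in red, 786-O in blue, circles for siRNA #1, squares for siRNA #2, a grey bar as long as the log2 gap between the NTC libraries of the line, centred at 0, and dotted lines at 0.32 either way. Only BAD with siRNA #2 in A498 lies outside the dotted lines, and MCL1 has all 4 points above 0.

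None of the 33 tested genes of the 4 further lists was called in any of these knockdown fits, BAX, BBC3 and BOK included. BAX had a log2 difference of -0.09 over both lines (SE 0.04, limma adjusted p = 0.44), BBC3 of -0.06 (SE 0.10, limma adjusted p = 0.82) and BOK of -0.06 (SE 0.06, limma adjusted p = 0.68). The adjusted p of the 33 genes was at least 0.33 in the fit over both lines.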

How the data were processed

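The authors sequenced TruSeq libraries as 36 bp single reads, and per the labels mapped them to hg19 with TopHat2 2.0.0 and computed FPKM with Cufflinks 2.0.2. The deposited FPKM values were computed library by library, with no stated scaling across them. The kit does not mark strand. Symbols were found for 97.7% of the 35951 NM entries, and FPKM was summed per symbol. Genes with a mean of at least 1 FPKM were tested on log2(FPKM + 0.1) with limma 3.58.1 (R 4.3.3), with a variance trend and Benjamini-Hochberg adjustment over all 10503 genes. Fold changes are on that scale and understate changes of low genes. The fits were also run on simulated data with independent noise, a check that does not cover differences between siRNAs or in depth. Genes holding 1 read gave the depth, and intervals of single values do not cover the spread between libraries. Read numbers were inferred from these intervals. They are not counts where a gene has several or overlapping entries. Members and lists were chosen with earlier results of these data known. All 10 members are given, and of the other lists the counts, BAX, BBC3, BOK and the 2 called genes with the largest line difference, some of which are not reported here. The 2-fold criterion and the readthrough sum were added after the data were seen. Tables used Python 3.11.15 with pandas 2.3.3.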

Additional observations from a re-analysis of the deposited data

How the results depend on the processing

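Over all alternatives the test called 5 to 8 members between the lines and 0 members in each knockdown fit. BCL2L2 was not called with the NTC libraries alone (log2 0.22) or the knockdown libraries alone (0.25), BID not with the NTC libraries alone (-0.16), and BCL2L11 was called after median-ratio scaling (0.18) or without A498 siRNA #1 (0.22). MCL1 between the lines changed sign after median-ratio scaling (0.00033) and without 786-O siRNA #1 (0.00018, with -0.040 as the lowest value without 1 library), and BCL2L2 with the readthrough entry (-0.61). Over both lines the knockdown difference of PMAIP1 ran from -0.057 to 0.12 without 1 library and was below 0 without A498 NTC 1, A498 siRNA #2 or 786-O NTC 2. That of BID ran from -0.00055 to 0.043 and was below 0 without 786-O siRNA #2. Without 1 library the others ran from -0.16 (without 786-O siRNA #2) to -0.0056 (without A498 siRNA #1) for BCL2A1, 0.049 (without 786-O NTC 1) to 0.16 (without A498 siRNA #1) for BCL2L11, 0.0029 (without 786-O siRNA #1) to 0.056 (without 786-O siRNA #2) for BCL2L1, 0.0082 (without A498 siRNA #2) to 0.10 (without A498 siRNA #1) for BCL2L2 and -0.083 (without 786-O siRNA #1) to -0.015 (without 786-O siRNA #2) for BAK1, none of them called. With the highest entry per symbol BCL2A1 was at -0.27. Their causes were not tested. The knockdown over both lines called 1 of all genes with NR entries added and 0 to 4 without 1 library, the 4 without 786-O siRNA #2. With NR entries the fits within A498, within 786-O and for the interaction called 20, 16 and 16 genes.

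Members past the fold threshold with siRNA #2 in A498 numbered 2 with no filter, 2 with the highest entry per symbol, and 0 to 2 without either NTC library (0 without NTC 1, 2 without NTC 2). With siRNA #1 in 786-O there was 1 with no filter and 0 to 1 without either NTC library (1 without NTC 2). Against the same-numbered NTC alone, a paired reading, the counts were 0 for siRNA #2 in A498 and 1 for siRNA #1 in 786-O. The replicate numbers were not taken as pairs, since deviations of same-numbered NTC and knockdown libraries correlated at 0.25 in A498 and -0.03 in 786-O over genes. With the number as a replicate block, 7 members were called between the lines and 0 in each knockdown fit. The SLINKY log2 difference ran from -2.80 to -1.61 over the pseudocounts. Precision is limited by 2 libraries a group and, for BCL2A1 and BCL2, by few reads.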
